A study of Mus musculus with 6 samples.

Results

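The genes described here encode glucose uptake, glycolysis, lactate dehydrogenase, lactate transport and the entry of pyruvate into mitochondria. They were chosen by name: 35 genes known for these steps were looked up among the 23511 entries of the deposited table that have an mRNA length, and all 35 were present, pyruvate kinase M under the symbol Pkm. Of the 13357 genes that reached 1 RPKM (read density per kilobase of mRNA after scaling to library depth) in at least 3 libraries, 33 were members. Pgam2 and Slc16a3 did not reach that level. RNA was sequenced from 3 carotid body pools and 3 adrenal medulla pools of untreated adult C57/BL6 mice. The carotid body (CB) is a small organ at the fork of the carotid artery that senses arterial oxygen. The adrenal medulla (AM), the inner zone of the adrenal gland, releases catecholamines into the blood. Each pool came from 10 mice and held 18 carotid bodies or 10 adrenal medullas, so n counts pools of whole tissue. Before library construction, all RNA went through amplification (MessageAmp II kit). In such bulk samples, a smaller number of cells of a type and less RNA per cell cannot be told apart.

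Glycolysis splits glucose into pyruvate in the cytosol. Lactate dehydrogenase then interconverts pyruvate and lactate, using tetramers built from LDHA and LDHB, and monocarboxylate transporters carry lactate and pyruvate across the cell membrane. Alternatively pyruvate enters the mitochondrion, where the pyruvate dehydrogenase complex turns it into acetyl-CoA, pyruvate dehydrogenase kinases switch that complex off, and pyruvate carboxylase turns it into oxaloacetate. Several of these genes are known targets of the hypoxia-inducible factors, and lactate has been studied as a signal in the carotid body.

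Both lactate dehydrogenase genes were higher in the carotid body, Ldha 5.20-fold and Ldhb 4.03-fold by the ratio of mean RPKM. The lactate carrier gene Slc16a1, the pyruvate carboxylase gene Pcx, the platelet-type phosphofructokinase gene Pfkp and the neuronal enolase gene Eno2 were also higher there. Pgam1, the common phosphoglycerate mutase gene, was lower in the carotid body, at 0.499 times its adrenal medulla level. By limma at a Benjamini-Hochberg adjusted p under 0.05, these were 6 members higher and 1 lower of 33 tested, and 26 were not called. Of all genes tested, 14.2% were called higher in the carotid body and 7.73% lower. The log2 difference, carotid body minus adrenal medulla on the log2(RPKM + 1) scale, was positive for 25 members and negative for 8, with a median of 0.36 against 0.021 over all genes tested. The members' count of calls was therefore near the background of these tissues, and Ldha and Ldhb had the largest differences on the log2(RPKM + 1) scale. By the ratio of mean RPKM, Pdk4, which was not called, was higher than Ldha at 6.05, and Slc16a1 at 4.56 and Slc2a4 at 4.19 were higher than Ldhb.

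**Figure D1:**
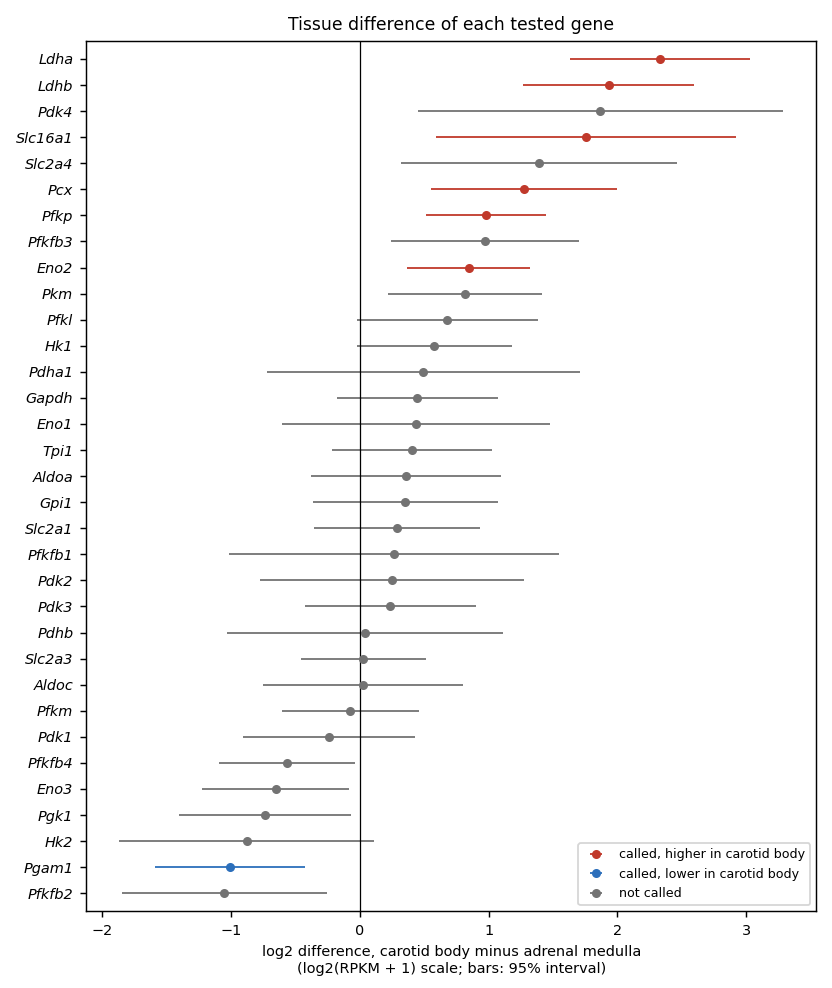
Log2 difference of each of the 33 tested genes, carotid body minus adrenal medulla, on the log2(RPKM + 1) scale, with bars for the 95% interval of the limma fit. Red points are the 6 genes called higher in the carotid body, the blue point is Pgam1, called lower, and grey points were not called; Ldha at 2.33 and Ldhb at 1.93 have the highest values.

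The libraries held 13266225 to 16445925 reads, and 1 read of a 2 kb mRNA was worth 0.0304 to 0.0377 RPKM. Ddc, shared by glomus and chromaffin cells, was at 855 ± 71.5 RPKM in CB and 250 ± 36.3 RPKM in AM (SD, n = 3 pools each). Th, of the same marker list, lay the other way, at 543 ± 106 RPKM in CB and 1793 ± 821 RPKM in AM. Pnmt, the adrenaline-making enzyme, was at 6.84 ± 8.59 RPKM in CB and 4325 ± 1669 RPKM in AM. The AM pools also held cortex RNA: all 11 of 11 tested cortex markers were lower in the carotid body, and their summed RPKM was 41.4 to 140 in the CB pools against 11690 to 16178 in the AM pools. Markers of smooth muscle and pericytes were higher in the carotid body for 9 of 10 tested genes (summed RPKM 2554 to 3082 in CB pools against 115 to 116 in AM pools). In the same order of tissues, markers of fibroblasts were higher for 8 of 8 genes (2249 to 2964 against 68.1 to 179), of glia for 9 of 9 (513 to 566 against 103 to 115), of endothelium for 7 of 10 (411 to 493 against 138 to 196) and of leukocytes for 2 of 6 (293 to 344 against 152 to 312). Of 11 chromaffin and glomus markers, only Ddc was called higher in the carotid body and 7 were lower, Th among them. The 1 tested cardiac marker was lower. No marker of these lists was at 0 in all 6 libraries. The part of these cells in the differences below was not tested.

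A pair of pools stood apart. Of 10 fat markers, 9 were tested and 0 were called by limma, by limma-voom on the reads or at an unadjusted p under 0.05. Their summed RPKM was 421, 3732 and 912 in CB pools 1, 2 and 3, and 751, 239 and 2333 in AM pools 1, 2 and 3. Ucp1, which defines brown fat, was at 0, 221 and 2.23 RPKM in the CB pools and 0, 0.128 and 2.48 RPKM in the AM pools. Carotid body pool 2 thus carried nearly all the Ucp1 of the series. In AM pool 3, 4 Y-linked genes summed to 0.0903 RPKM, against 25.1 to 48.8 RPKM in the CB pools and 65.9 and 68.3 RPKM in AM pools 1 and 2. Calls that changed without these 2 pools are given beside the gene.

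None of the 3 glucose carrier genes was called. Slc2a1, which encodes the widespread carrier GLUT1, was at 7.88, 10.7 and 14.9 RPKM in CB and 6.68, 10.6 and 9.17 RPKM in AM. The groups overlapped, and the interval of the log2 difference ran from -0.35 to 0.93. For Slc2a3, the high-affinity neuronal carrier GLUT3, the means were 11.7 ± 1.19 RPKM in CB and 11.5 ± 1.62 RPKM in AM, and the interval was -0.46 to 0.51. Slc2a4, the insulin-regulated carrier of fat and muscle, was at 3.22, 17.5 and 6.05 RPKM in CB and 2.32, 2.18 and 1.90 RPKM in AM. All CB pools lay above all AM pools, with the fat-rich pool 2 the highest, and the log2 difference of 1.39 ± 0.47 (SE) did not pass (adjusted p = 0.0689). It passed in a limma fit with the pool number as a replicate block (adjusted p = 0.0402) and without CB pool 1 (1.87, adjusted p = 0.0254). It was 0.80 without CB pool 2 (adjusted p = 0.107) and 0.75 without CB pool 2 and AM pool 3 (adjusted p = 0.104). Of the summed RPKM of the 3 carriers, Slc2a4 held 25.4% ± 15.2 in CB and 9.56% ± 1.34 in AM, without overlap.

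Hexokinase traps glucose in the cell as glucose 6-phosphate. Hk1, the isoform typical of brain and red cells, was at 15.2, 10.8 and 19.3 RPKM in CB and 8.09, 9.15 and 11.6 RPKM in AM. Hk2, the isoform of muscle and fat, was at 1.21, 5.20 and 1.07 RPKM in CB and 3.73, 3.60 and 7.08 RPKM in AM. Neither was called (adjusted p = 0.172 and 0.207), and for both the groups overlapped only through CB pool 2. Without CB pool 2, Hk2 was lower in the carotid body by a log2 difference of -1.39 (adjusted p = 0.0205). Without CB pool 2 and AM pool 3, Hk1 differed by 0.92 (adjusted p = 0.0302) and Hk2 by -1.13 (adjusted p = 0.0102). Hk1 made up 92.6%, 67.5% and 94.7% of the hexokinase RPKM in the CB pools and 68.4%, 71.8% and 62.2% in the AM pools, while the sum of both genes was 17.6 ± 2.38 RPKM in CB and 14.4 ± 3.74 RPKM in AM.

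Phosphofructokinase makes fructose 1,6-bisphosphate, the committed step of glycolysis. Pfkp was at 41.0, 44.5 and 45.2 RPKM in CB and 19.6, 25.0 and 20.5 RPKM in AM. The groups were far apart, with the CB pools within a few RPKM of each other, and the log2 difference was 0.98 ± 0.20 (adjusted p = 0.00845). The call was lost without CB pool 3 (adjusted p = 0.0532). Pfkp shares 15.8% of its 36-base stretches with the overlapping gene Pitrm1, whose values lay in the other direction, at 7.76 ± 3.22 RPKM in CB and 21.8 ± 4.82 RPKM in AM. Pfkl, the liver-type gene, averaged 12.5 ± 3.15 RPKM in CB and 7.599 ± 2.85 RPKM in AM. It was not called (adjusted p = 0.168), but was called higher with the replicate block (adjusted p = 0.0447) and without AM pool 3 (adjusted p = 0.0440). Pfkm, the muscle-type gene, averaged 20.3 ± 4.53 RPKM in CB and 21.1 ± 1.77 RPKM in AM. Pfkp held 57.4% ± 4.76 of the summed phosphofructokinase RPKM in CB and 43.1% ± 3.94 in AM, and Pfkm held 26.4% ± 2.78 in CB and 42.0% ± 1.58. in AM Neither share overlapped between the tissues.

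**Figure D2:**
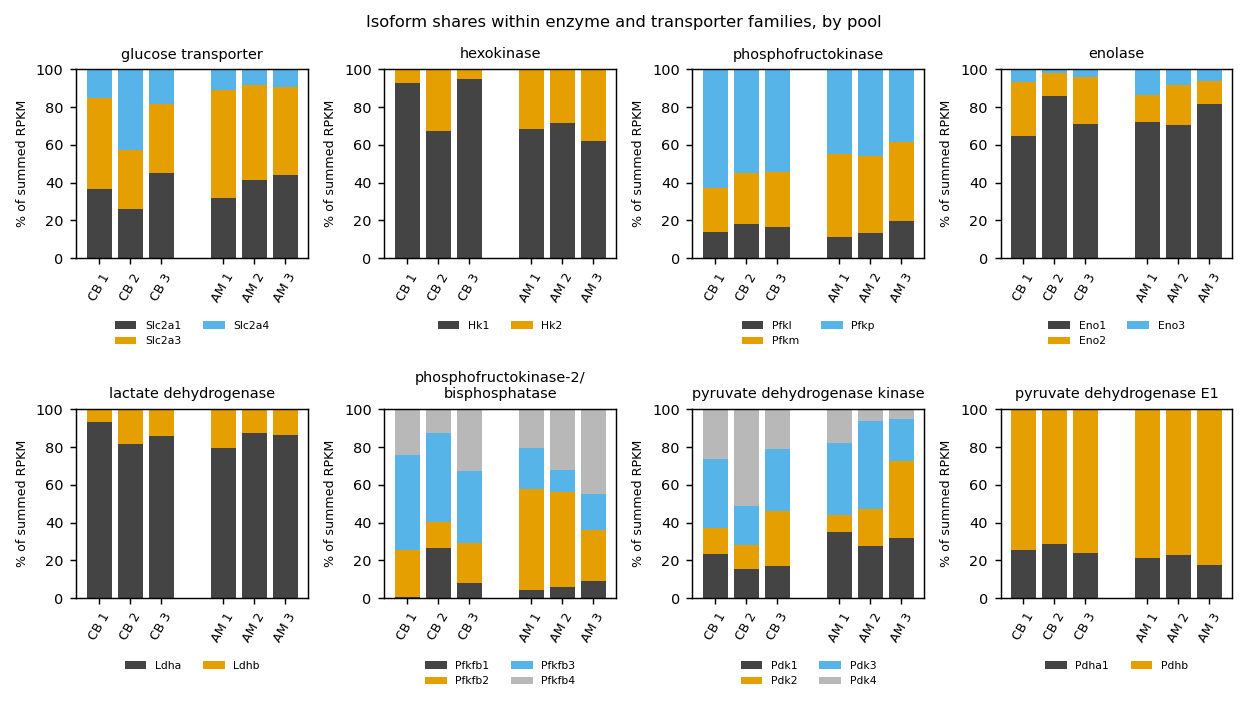
Share of each isoform, in percent of the summed RPKM of its family, in carotid body (CB) pools 1 to 3 and adrenal medulla (AM) pools 1 to 3, for 8 families with at least 2 tested genes. Pfkp, Pfkfb3, Pdk4 and Slc2a4 take a larger share in every CB pool than in any AM pool, while the Ldha share overlaps between the tissues.

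The isomerase, aldolase and glyceraldehyde phosphate dehydrogenase genes were abundant in both tissues, and none of the 5 was called. Aldoa, the main aldolase gene, led the members at 1131, 1589 and 1252 RPKM in CB and 770, 943 and 1465 RPKM in AM, and AM pool 3 lay above 2 of the CB pools. It ranked 59th from the top in CB and 78th in AM among the tested genes. Aldoc, the brain-type aldolase gene, averaged 45.3 ± 17.8 RPKM in CB and 42.6 ± 9.97 RPKM in AM. Gpi1, the isomerase that precedes phosphofructokinase, averaged 114 ± 35.1 RPKM in CB and 88.1 ± 25.0 RPKM in AM, and Tpi1, triose phosphate isomerase, averaged 435 ± 113 RPKM in CB and 323 ± 51.4 RPKM in AM. Gapdh, which makes the first NADH of the pathway, was at 241, 274 and 322 RPKM in CB and 152, 210 and 263 RPKM in AM. Its groups overlapped, and the interval of its log2 difference was -0.18 to 1.07 (adjusted p = 0.312).

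The next enzymes leaned the other way. Pgk1, which makes the first ATP of glycolysis, was at 166, 262 and 135 RPKM in CB and 295, 348 and 267 RPKM in AM. Every AM pool lay above every CB pool, though CB pool 2 came close to AM pool 3, and the log2 difference of -0.74 ± 0.29 was not called (adjusted p = 0.117). It was called with the replicate block (adjusted p = 0.0495), without CB pool 2 (-1.004, adjusted p = 0.0407) and without CB pool 2 and AM pool 3 (-1.09, adjusted p = 0.0195). Pgam1, which moves the phosphate of 3-phosphoglycerate, was at 315, 321 and 228 RPKM in CB and 653, 503 and 574 RPKM in AM. Here the groups were well apart, with a log2 difference of -1.01 ± 0.25 (adjusted p = 0.0217). The call was lost without CB pool 1 (adjusted p = 0.0559) or pool 3 (0.123) and without AM pool 1 (0.0806) or pool 2 (0.0615), with differences of -0.85 to -1.10. Other genes, led by processed pseudogenes, share 42.0% of the 36-base stretches of Pgam1 transcripts, 68.2% of those of Pgk1 and 61.5% of those of Gapdh, so these values are uncertain. For Gpi1, Pkm, Pdhb and Pfkfb2 the shared part was 32.6%, 31.2%, 38.5% and 26.0%, and for Aldoa and Tpi1 it was 13.5% and 13.1%. The muscle gene Pgam2 had 28 reads in all CB pools and 18 in all AM pools.

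Enolase and pyruvate kinase close the pathway. Eno2 was at 25.3, 27.0 and 25.9 RPKM in CB and 11.7, 16.5 and 14.4 RPKM in AM. The CB pools nearly coincided and lay above every AM pool, with a log2 difference of 0.84 ± 0.21 (adjusted p = 0.0208). The call was lost without CB pool 1, 2 or 3 or AM pool 1 (adjusted p = 0.0693, 0.0782, 0.0875 and 0.0788), with differences of 0.72 to 0.87. Neuron markers were called higher in the carotid body for 3 of 9 tested genes and summed to 673 to 879 RPKM there, against 516 to 768 RPKM in the adrenal medulla, and their part in the Eno2 difference was not tested. Eno1, the ubiquitous enolase gene, was at 57.2, 195 and 72.6 RPKM in CB and 58.0, 55.6 and 100 RPKM in AM, and CB pool 2 stood alone. The near-identical gene Eno1b shares 51.3% of its 36-base stretches, so its value is uncertain. Eno3, the muscle enolase gene, averaged 4.93 ± 0.987 RPKM in CB and 8.41 ± 2.21 RPKM in AM, with every AM pool above every CB pool. It was called lower with the replicate block (adjusted p = 0.0473) and not without it (adjusted p = 0.104). The muscle markers Ckm, Myh1, Myh2, Myh4 and Pvalb did not exceed 0.244 RPKM in any pool. Acta1 was at 14.3, 15.4 and 21.4 RPKM in CB and 11.6, 14.6 and 19.8 RPKM in AM. Myl1 was at 2.54, 22.8 and 5.38 RPKM in CB and 14.0, 17.5 and 12.6 RPKM in AM. Neither was called, while 2 of the 5 tested skeletal muscle markers, Tnnt3 and Tnni2, were called higher in the carotid body. The list summed to 33.8 to 46.4 RPKM in CB and 29.7 to 37.4 RPKM in AM. The part of muscle in the Eno3 values was not tested.

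Pkm, which encodes pyruvate kinase M and makes pyruvate with the last ATP of the pathway, was at 240, 274 and 248 RPKM in CB and 105, 151 and 185 RPKM in AM. No pool of one tissue reached the other, yet the log2 difference of 0.82 ± 0.26 just missed the threshold (adjusted p = 0.0577). It passed with the replicate block (adjusted p = 0.0398), under quantile scaling (0.0338), without AM pool 3 (0.0217) and without both pools named above (0.0383). The table gives 1 value for the gene, so its M1 and M2 splice forms are not told apart.

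**Figure D3:**
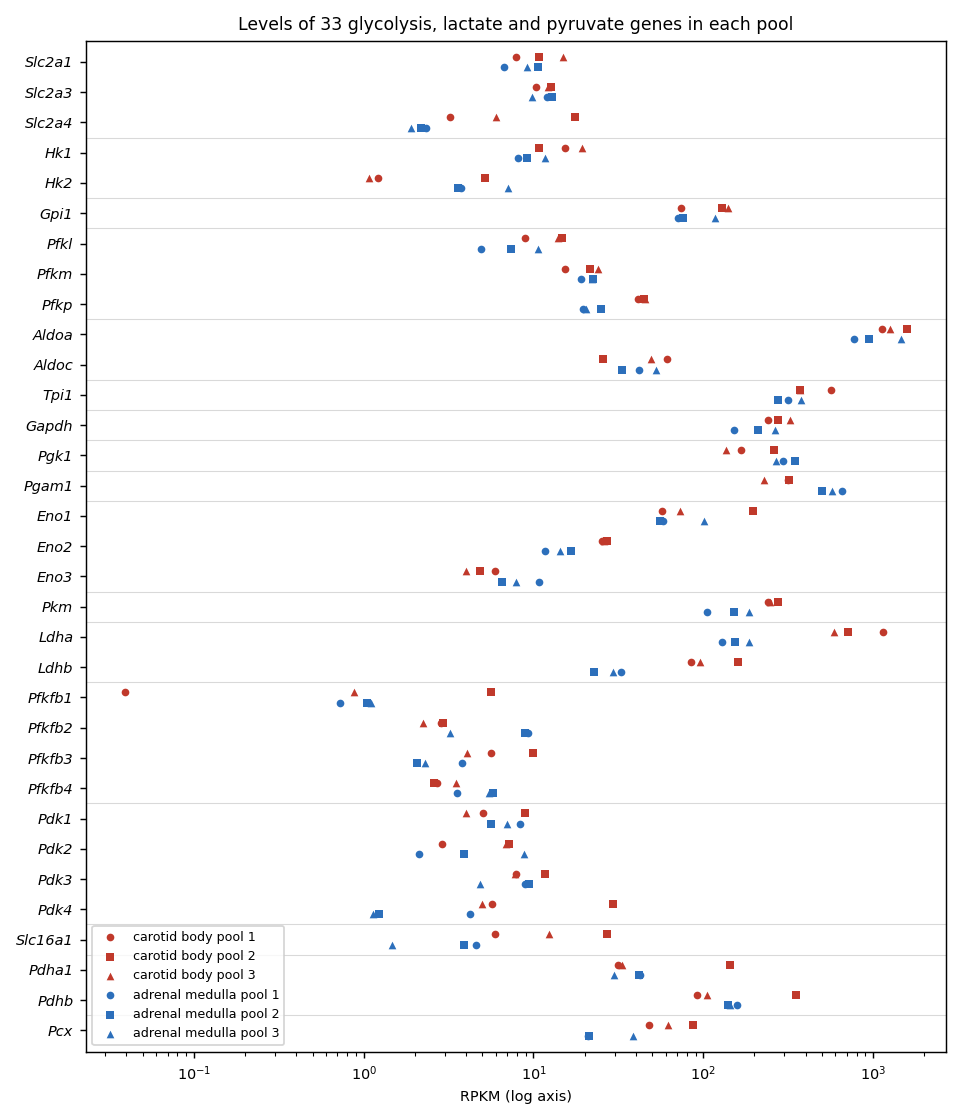
RPKM of the 33 tested genes in each pool on a log axis, from the glucose carriers at the top to pyruvate carboxylase at the bottom, with CB pools in red above AM pools in blue. Aldoa and Ldha have the highest values of CB, and CB pool 2 (red squares) stands away from pools 1 and 3 for Pdha1, Pdhb, Pdk4, Slc2a4 and Slc16a1.

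The lactate dehydrogenase genes had the largest differences of the 33 tested members on the log2(RPKM + 1) scale with all pools. With limma-voom on the reads, Pdk4 lay above Ldha at 2.38 against 2.34, and Slc16a1 above Ldhb at 2.09 against 1.97. Ldha, whose product favours the making of lactate, was at 1139, 713 and 589 RPKM in CB and 129, 154 and 187 RPKM in AM. The lowest CB pool lay far above the highest AM pool, and the log2 difference was 2.33 ± 0.31 with an interval of 1.63 to 3.03 (adjusted p = 0.000808). Ldhb, typical of heart and of tissues that take up lactate, was at 84.9, 161 and 95.9 RPKM in CB and 32.9, 22.6 and 29.3 RPKM in AM. It differed by 1.93 ± 0.29, also without overlap (adjusted p = 0.00162). Both genes were called in all 13 alternatives. Ldha ranked 110th from the top in CB and 618th in AM.

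The balance of the 2 subunit genes did not separate the tissues. Ldha held 93.1%, 81.6% and 86.0% of the summed lactate dehydrogenase RPKM in the CB pools and 79.6%, 87.2% and 86.4% in the AM pools. The sum itself was 928 ± 273 RPKM in CB and 185 ± 27.8 RPKM in AM. Against Gapdh, Ldha stood at ratios of 4.73, 2.60 and 1.83 in the CB pools and 0.8495, 0.736 and 0.710 in the AM pools. Against Pgam1, the ratios were 3.62, 2.22 and 2.59 in CB and 0.197, 0.307 and 0.325 in AM. Against Pdha1, the ratios were 36.2, 4.98 and 17.7 in CB and 3.02, 3.72 and 6.22 in AM, and the tissues overlapped. Gapdh and Pgam1 are among the genes whose values are uncertain through shared sequence. Pdha1 shares 19.4% of its 36-base stretches with other genes, led by Map3k15 at 17.9%.

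Red cell transcripts moved with the tissues as well, and their part in the lactate dehydrogenase levels was not tested. Of 6 erythroid markers tested, 5 were called higher in the carotid body, and the list summed to 14821, 4825 and 14091 RPKM in the CB pools and 2174, 2324 and 5153 RPKM in the AM pools. Among the 36-base stretches, 18.9% of those of Ldha and 29.6% of those of Ldhb also occur in transcripts of other genes, led by processed pseudogenes. Slc16a1 and Pcx shared none.

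The proton-coupled carrier MCT1, encoded by Slc16a1, moves lactate and pyruvate in either direction. Slc16a1 was at 5.94, 27.1 and 12.3 RPKM in CB and 4.57, 3.91 and 1.47 RPKM in AM. The groups did not overlap, but the highest value came from the fat-rich CB pool 2 and the lowest from AM pool 3. The log2 difference was 1.75 ± 0.51 (adjusted p = 0.0394). It was 1.24 without CB pool 2 (adjusted p = 0.104) and 0.88 without both pools (adjusted p = 0.105), and the call was also lost without CB pool 3 (0.105), without AM pool 2 (0.0717) or pool 3 (0.0751) and with no filter on low genes (0.181). Slc16a3, the lactate exporter MCT4 of strongly glycolytic cells, was low in both tissues, at 0.498, 0.302 and 0.773 RPKM in CB and 0, 0.0843 and 0.195 RPKM in AM, or 58 reads against 11 in all.

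**Figure D4:**
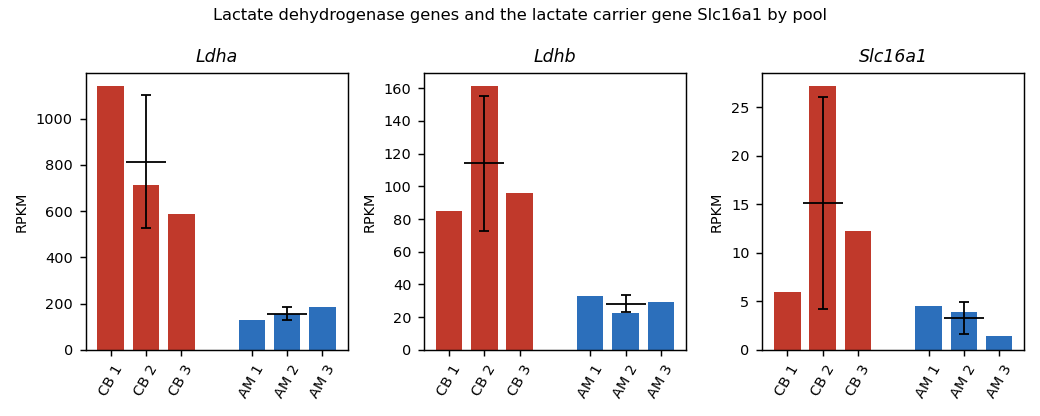
RPKM of Ldha, Ldhb and Slc16a1 in carotid body (CB) pools 1 to 3, red, and adrenal medulla (AM) pools 1 to 3, blue, as 1 bar per pool, with a horizontal line for the mean of the tissue and a bar for its SD. Ldha is highest in CB pool 1 at 1139 RPKM, while Ldhb and Slc16a1 are highest in CB pool 2 at 161 and 27.1 RPKM.

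Hypoxia-inducible factors bind DNA at the core letters ACGTG or GCGTG. The RefSeq promoters (build GRCm38.p6) of 33 members were matched by symbol. Where a gene had several starts, only the most upstream was used, for members and for all genes alike. That start need not be the one used in these tissues. The 250 bases before the start were searched for ACGTG and GCGTG on both strands. Overlapping matches, as in the palindrome CACGTG, were counted as 1 site. At least 1 site was found for 25 of 33 members, or 75.8%, against 38.6% of 27025 genes, and 13 members had 2 or more against 13.6% of all genes. The 27025 genes were not filtered by expression, while all matched members except Pgam2 and Slc16a3 had passed the RPKM filter. The shares are therefore not from like sets of genes. The members' windows were also richer in G and C, at a median of 59.2% against 52% over all genes. Of the 7 called members, 6 held a site and Eno2 held none. A match is a description of the letters and not a bound site. The windows of the lactate genes and of Pgam1, called in the other direction, are shown 5′ to 3′ along the gene's strand to set their sites side by side, with the matched letters in capitals.
Ldha, chr7:46845554-46845803, plus strand: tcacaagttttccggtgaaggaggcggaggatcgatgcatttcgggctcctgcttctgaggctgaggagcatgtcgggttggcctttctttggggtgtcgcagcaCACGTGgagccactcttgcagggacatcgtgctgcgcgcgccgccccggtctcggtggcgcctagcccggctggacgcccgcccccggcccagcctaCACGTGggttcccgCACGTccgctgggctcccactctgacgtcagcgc
Ldhb, chr6:142507958-142508207, minus strand: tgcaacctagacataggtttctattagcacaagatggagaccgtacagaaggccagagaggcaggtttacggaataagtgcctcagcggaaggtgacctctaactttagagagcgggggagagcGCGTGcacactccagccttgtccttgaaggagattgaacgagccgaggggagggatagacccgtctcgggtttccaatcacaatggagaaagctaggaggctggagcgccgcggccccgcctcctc
Slc16a1, chr3:104638414-104638663, plus strand: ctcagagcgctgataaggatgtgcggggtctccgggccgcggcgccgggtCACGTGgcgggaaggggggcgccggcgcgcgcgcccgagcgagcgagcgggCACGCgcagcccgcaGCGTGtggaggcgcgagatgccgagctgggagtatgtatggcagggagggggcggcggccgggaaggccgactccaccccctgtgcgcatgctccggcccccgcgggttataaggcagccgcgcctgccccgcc
Pgam1, chr19:41911621-41911870, plus strand: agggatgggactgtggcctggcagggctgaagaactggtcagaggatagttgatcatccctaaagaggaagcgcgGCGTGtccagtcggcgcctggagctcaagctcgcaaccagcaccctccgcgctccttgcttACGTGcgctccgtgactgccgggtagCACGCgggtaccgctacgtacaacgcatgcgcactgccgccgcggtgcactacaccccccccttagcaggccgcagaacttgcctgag

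Ldha, Slc16a1 and Pgam1 each carried 3 sites and Ldhb carried 1. Of the other called members, Pfkp carried 3, Pcx carried 2 and Eno2 carried 0. All matches of Ldha were ACGTG, while Pgam1 had 1 ACGTG and 2 GCGTG matches. The part of these sites in the differences was not tested. Of the factors themselves, Epas1, which encodes HIF-2α, was higher in the carotid body, at 556 ± 82.0 RPKM in CB and 51.3 ± 5.32 RPKM in AM (adjusted p = 2.71e-05). Hif1a, the HIF-1α gene, was at 10.6 ± 4.65 RPKM in CB and 11.1 ± 6.08 RPKM in AM (adjusted p = 0.966).

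The bifunctional PFKFB enzymes set the level of fructose 2,6-bisphosphate, the activator of phosphofructokinase. None of the 4 genes was called by limma or limma-voom, and 3 had an unadjusted p under 0.05. Pfkfb3, the isoform with the strongest kinase activity, was at 5.65, 9.90 and 4.08 RPKM in CB and 3.82, 2.07 and 2.30 RPKM in AM. Its log2 difference of 0.97 ± 0.32 was not called (adjusted p = 0.0626), though it was without AM pool 1 (1.17, adjusted p = 0.0464). It was 0.67 without CB pool 2 (adjusted p = 0.184) and 0.60 without CB pool 2 and AM pool 3 (adjusted p = 0.176). Pfkfb2, the heart-type isoform, was at 2.86, 2.94 and 2.22 RPKM in CB and 9.34, 8.97 and 3.23 RPKM in AM, where pool 3 was close to the carotid body. The difference of -1.05 ± 0.35 was not called (adjusted p = 0.0651). It was called with the replicate block (adjusted p = 0.0229), under median-ratio (0.0336) and quantile scaling (0.0190), without AM pool 3 (-1.47, adjusted p = 0.00132) and without both pools (-1.53, adjusted p = 0.00546). Pfkfb3 held 45.1% ± 6.25 of the family's RPKM in CB and 17.5% ± 5.32 in AM, and Pfkfb2 held 20.0% ± 5.74 in CB and 43.6% ± 14.7 in AM, both without overlap. Pfkfb4 averaged 2.95 ± 0.497 RPKM in CB and 4.91 ± 1.21 RPKM in AM (adjusted p = 0.126). Pfkfb1, the liver and muscle isoform, had 1 read in CB pool 1 and 130 in pool 2, or 0.0393 and 5.59 RPKM. The 4 genes together summed to 14.3 ± 5.82 RPKM in CB and 15.8 ± 3.195 RPKM in AM.

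Among the pyruvate dehydrogenase kinases, Pdk4, the isoform induced by fasting and fat use, was at 5.67, 29.2 and 5.003 RPKM in CB and 4.22, 1.24 and 1.13 RPKM in AM. The groups did not overlap, yet CB pools 1 and 3 were close to AM pool 1, and the log2 difference of 1.87 ± 0.62 was not called (adjusted p = 0.0656). It was called without AM pool 1 (2.29, adjusted p = 0.0366). It was 1.12 without CB pool 2 (adjusted p = 0.116) and 0.89 without CB pool 2 and AM pool 3 (adjusted p = 0.153). Pdk1, a known HIF target, averaged 5.98 ± 2.55 RPKM in CB and 6.96 ± 1.36 RPKM in AM, Pdk2 5.66 ± 2.42 RPKM in CB and 4.93 ± 3.46 RPKM in AM, and Pdk3 9.09 ± 2.21 RPKM in CB and 7.72 ± 2.51 RPKM in AM, and the groups overlapped for all 3. Pdk4 held 26.4%, 51.3% and 21.1% of the kinase RPKM in the CB pools and 17.9%, 6.17% and 5.18% in the AM pools.

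Pdha1 and Pdhb encode the alpha and beta subunits of the E1 enzyme of the pyruvate dehydrogenase complex. Pdha1 was at 31.5, 143 and 33.4 RPKM in CB and 42.7, 41.6 and 30.0 RPKM in AM. Pdhb was at 91.9, 354 and 106 RPKM in CB and 158, 140 and 143 RPKM in AM. Carotid body pool 2 lay above all other pools for both, while pools 1 and 3 were below all AM pools for Pdhb. Without CB pool 2 and AM pool 3 the log2 differences turned to -0.37 for Pdha1 and -0.59 for Pdhb, with adjusted p-values of 0.207 and 0.0855. With all pools they were 0.49 and 0.040 (adjusted p = 0.598 and 0.969). Pcx, which feeds oxaloacetate into the citric acid cycle and is abundant in fat, was at 48.1, 87.3 and 61.8 RPKM in CB and 21.0, 21.2 and 38.3 RPKM in AM. Every CB pool lay above every AM pool, with a difference of 1.27 ± 0.32 (adjusted p = 0.0205). It was called without CB pool 2 and AM pool 3 together, and the call was lost without CB pool 2 (1.05, adjusted p = 0.0770) or pool 3 (0.0698), without AM pool 1 (0.0628) or pool 2 (0.0859) and with no filter (0.0892).

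Carotid body pool 2 held the highest value for many members. It was the highest of the CB pools for 22 of the 33 tested members, against 44.7% of all genes, and the highest of all 6 pools for 16, against 18.7% of all genes. It exceeded 2-fold the mean of pools 1 and 3 for 9 members, Slc2a4, Hk2, Eno1, Pfkfb1, Pfkfb3, Pdk4, Slc16a1, Pdha1 and Pdhb, against 4.18% of all genes. The fat marker sum of that pool is given above, and its part in these values was not tested. In AM pool 3, the AM pool with the highest fat sum, the marker Cfd alone was at 1641 RPKM. Adipoq, Lipe and Lep were at 79.8, 35.4 and 0.747 RPKM there, against 68.0, 6.26 and 1.46 RPKM in AM pool 1. Of the 9 members, AM pool 3 was the lowest of its tissue for Slc2a4, Pdk4, Slc16a1 and Pdha1 and the highest for Hk2, Eno1 and Pfkfb1. It lay between the others for Pfkfb3 and Pdhb. It was also the highest AM pool for Pcx.

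**Figure D5:**
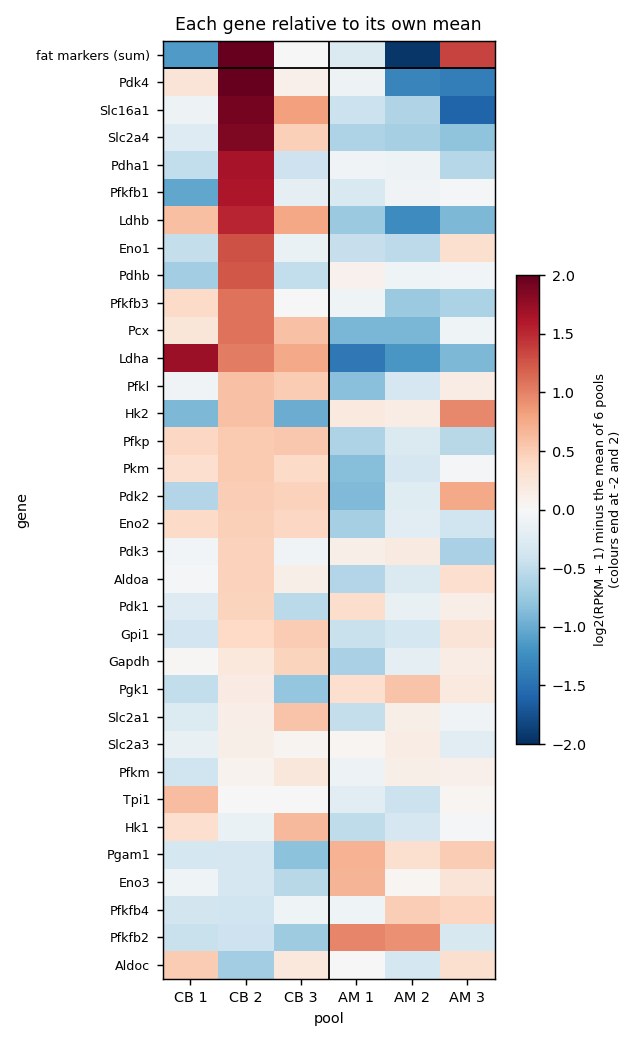
Each gene's log2(RPKM + 1) minus its own mean over the 6 pools, as colour from blue, below, to red, above, with carotid body (CB) pools 1 to 3 left of adrenal medulla (AM) pools 1 to 3. The top row is the summed RPKM of the fat markers treated the same way, which is darkest in CB pool 2, the pool in which Pdk4, Slc16a1, Slc2a4, Pdha1 and Pfkfb1 are also highest.

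Without overlap, 10 members had all CB pools above all AM pools, against 22.3% of all genes, and 5 had the reverse, against 14.7% of all genes. With the replicate block, 9 members were called higher, against 16.9% of all genes, and 4 lower, against 10.2% of all genes. Without CB pool 2 and AM pool 3, 7 of 32 members were called higher, against 10.9% of all genes, and 4 lower, against 13.1% of all genes. The added calls were Hk1 and Pkm among the higher genes and Pgk1, Pfkfb2 and Hk2 among the lower ones, and Slc16a1 was lost.

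The neighbouring pathways are described by their counts of calls, against 14.2% higher and 7.73% lower over all genes tested. Of 20 tested other glycolysis and glycogen genes, 2 were called, Pgm2l1 and Galm, both higher, with a median log2 difference of 0.075 against 0.021 over all genes tested. Of 6 tested other lactate and pyruvate carriers and dehydrogenases, 1 was called: Ldhd, the mitochondrial D-lactate dehydrogenase gene, was at 2.00, 3.81 and 2.36 RPKM in CB and 7.49, 9.25 and 14.2 RPKM in AM (log2 -1.59 ± 0.29, adjusted p = 0.00446). It lay opposite in direction to Ldha and Ldhb and was called in all 13 alternatives. Bsg, the chaperone of MCT1 known as basigin, averaged 158 ± 65.6 RPKM in CB and 180 ± 90.5 RPKM in AM, and Mpc1, a subunit of the mitochondrial pyruvate carrier, was at 148, 898 and 209 RPKM in CB and 199, 311 and 194 RPKM in AM.

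Of 13 tested genes of anaplerosis and the malate shuttles, 3 were called lower, Got1, Me1 and Slc25a13, or 2 by limma-voom, against 7.73% of all genes. Got1, the cytosolic aspartate aminotransferase, was at 14.0, 15.0 and 17.4 RPKM in CB and 70.8, 81.9 and 81.2 RPKM in AM (log2 -2.26 ± 0.20), and it was called in all 13 alternatives. Me1, the cytosolic malic enzyme that turns malate into pyruvate, was at 20.4, 276 and 22.01 RPKM in CB and 502, 457 and 242 RPKM in AM. Carotid body pool 2 overlapped AM pool 3, and the log2 difference was -2.89 (adjusted p = 0.0491) with all pools and -4.44 (adjusted p = 0.000367) without these 2. It was called in 5 of 13 alternatives. Of 16 citric acid cycle genes, 1 was called, the succinyl-CoA ligase subunit gene Suclg2, which was lower in the carotid body (12.7 ± 2.13 RPKM in CB and 33.6 ± 5.02 RPKM in AM). Of 7 tested other genes of the pyruvate dehydrogenase complex, 1 was called, the phosphatase gene Pdp2 (7.92 ± 0.391 RPKM in CB and 4.52 ± 0.633 RPKM in AM), higher in the carotid body and called in 4 of 13 alternatives. Of 4 tested gluconeogenesis genes, 2 were called lower (7.73% of all genes), Fbp1 and G6pc3, with G6pc3, a widespread glucose 6-phosphatase, at 35.4 ± 0.952 RPKM in CB and 68.7 ± 18.7 RPKM in AM, called in 7 of 13 alternatives. Of 5 tested other hexose transporters, 1 was called, Slc2a10, higher in the carotid body. Of 7 tested pentose phosphate genes, 0 were called by limma or limma-voom, and 1 was lower at an unadjusted p under 0.05. The median log2 difference was -0.10 for the carriers and dehydrogenases, -0.0032 for anaplerosis and shuttles, -0.062 for the citric acid cycle, -0.50 for the pyruvate dehydrogenase complex, -0.12 for gluconeogenesis, -0.042 for the hexose transporters and -0.21 for the pentose phosphate genes. Pgm2l1, Galm, Slc25a13, Fbp1 and Slc2a10 are named to spell out these counts, after their values were seen.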

How the data were processed

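The RPKM values were made by the authors: per the file headers they are scaled by library depth and by the listed mRNA length, and reads were aligned with Bowtie 0.9.8 to mm9, per the submitters' processing notes. The counting tool, its strand setting and its handling of reads with several matches are not given in the sources used here. In the deposited table, 3217 of 26728 entries have no length and hold unscaled whole numbers, so they were left out. Every remaining value above 0 came out as a whole read within 0.01, and the worth of 1 read describes counting only, since the reads carry no molecular identifiers.

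Differences were tested in R 4.3.3 by limma 3.58.1, fitted to log2(RPKM + 1) with a variance trend and 8.47 moderated degrees of freedom, over 13357 genes with at least 1 RPKM in at least 3 of the 6 libraries. That scale understates the differences of low genes. Calls are two-sided at a Benjamini-Hochberg adjusted p under 0.05 over all genes tested, and p-values and 95% intervals measure only the spread between these pools. The procedure was tested on simulated data with a common spread for all genes. Those data held no fat or sex differences between pools, so they do not cover that feature of these libraries. Shares and sums over a family are described without a test. The text names every member, up to 3 called genes per pathway list with at least 5 RPKM in the higher tissue, and further genes where it says so. The members and lists were chosen with earlier results of these data known.

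Pool numbers come from the labels, where the design note describes carotid bodies and adrenal medullas pooled from 10 mice. Tissue was collected on more than 1 day, per the labels' protocols, which do not tie pools to days. Deviations of same-numbered pools from their tissue means correlated at 0.259, 0.128 and 0.473 across genes. Those of differently numbered pools correlated at -0.622 to 0.291, so the match by number is not established. The Y-linked sum was 25.1 RPKM in CB pool 3 and 0.0903 RPKM in AM pool 3, so these pools did not come from the same 10 mice. The replicate block is given where it changes a call, and calls made only with it are tentative. Other alternatives were a pseudocount of 0.1, no filter, median-ratio and quantile scaling, limma-voom on the recovered reads, leaving out each pool, and leaving out CB pool 2 with AM pool 3. Stretches of 36 bases shared between genes were counted in the GENCODE M21 transcripts, and promoters are RefSeq's, both on GRCm38, for sequence only. Tables and plots used Python 3.11.15, pandas 2.3.3, numpy 2.4.6 and matplotlib 3.10.9.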

Additional observations from a re-analysis of the deposited data

How the results depend on the processing

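Of the 425 member values under the alternatives, 362 kept their direction and side of the threshold, 22 passed only there, 20 no longer passed and 21, all of genes not called, turned direction. Leaving out 1 pool at a time, limma called 926 to 1976 genes higher in the carotid body and 464 to 1178 lower, and 2 to 7 members higher and 0 to 3 lower; without CB pool 2 and AM pool 3 it called 1603 genes and 4 members lower. With the replicate block, 4 members were called lower and 9 higher, and no call other than those given in the report changed. Under median-ratio and under quantile scaling, 2 members were called lower. Slc2a3 turned to -0.045 under median-ratio scaling, to -0.049 with quantile scaling and to -0.13 without those 2 pools, where Pdk3 turned to -0.20, Pdha1 to -0.37 and Pdhb to -0.59. Under median-ratio scaling Aldoc turned to -0.052 and Pdhb to -0.039. Pfkfb1 turned to -0.18 with a pseudocount of 0.1 and to -0.57 with limma-voom. Leaving out 1 pool at a time, the log2 difference ran from -0.079 to 0.11 for Slc2a3, from -0.20 to 0.11 for Pfkm, from -0.22 to 0.38 for Aldoc, from -0.091 to 0.79 for Eno1, from -0.13 to 0.69 for Pdk2, from -0.031 to 0.38 for Pdk3, from -0.21 to 0.87 for Pdha1 and from -0.57 to 0.40 for Pdhb. Of 203 isoform shares 198, and of 136 family sums 134, moved by less than the spread between pools. Leaving out 1 of 3 pools cannot move a tissue mean by more than that spread. Those settings could only come out unchanged, so the counts do not measure stability. The exceptions all came without CB pool 2 and AM pool 3, a setting in which a larger move was possible. The cause of the moves in that setting was not tested. With 3 pools a tissue, the intervals of the members had a median half-width of 0.70 on the log2 scale, so differences under that size were mostly not detectable. These intervals are not adjusted for the number of genes, while the calls are, so some larger differences were not called either. Pkm at 0.82 and Slc2a4 at 1.39 were not called, while Eno2 at 0.84 was. Low genes such as Pfkfb1 and Slc16a3 rest on few reads.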
